A study of Mus musculus with 12 samples.

Results

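The 10 genes described here encode the chaperones of the endoplasmic reticulum (ER) lumen that work with or beside the Hsp70 protein BiP: Hspa5, Hsp90b1, Hyou1, Dnajb9, Dnajb11, Dnajc3, Sdf2l1, Manf, Creld2 and Sil1. They were chosen by symbol, not by their values, and all 10 were found among the 23337 symbols of each of 12 count tables. All 10 also passed the filter on low counts, which kept 12038 genes, and their lowest count in any library was 106. The RNA came from regulatory T cells (Treg) of 8-week-old C57BL/6 mice, in 4 groups of 3 libraries. The groups were iTreg KO, iTreg WT, nTreg KO and nTreg WT. The label KO stands for Hrd1 flox/flox animals and the label WT for Hrd1 +/flox animals, and animals of both labels carried FoxP3-cre+-GFP. Hrd1, counted here under the symbol Syvn1, is a ubiquitin ligase of the ER membrane that tags misfolded ER proteins for destruction. Natural Treg (nTreg) were CD4+GFP+ cells sorted out of spleen and lymph nodes, and induced Treg (iTreg) were GFP+ cells isolated after 5 days of CD4 T cell culture with IL-2 and TGF-beta. Cre was driven by Foxp3 in every group, so a WT-labelled cell may lack one copy of Hrd1, and no group was free of floxed alleles. The labels do not tell whether the 3 libraries of a group stem from different mice, and p-values thus refer only to the spread among them, which may be technical.

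Secreted and membrane proteins enter the ER unfolded. BiP, the ER Hsp70, binds their exposed hydrophobic stretches in a cycle of ATP hydrolysis. J proteins deliver clients to BiP and stimulate its ATPase, and nucleotide exchange factors reset it. GRP94, the ER Hsp90, receives a narrower set of clients later in folding, among them integrins and Toll-like receptors. When unfolded proteins accumulate, the unfolded protein response raises transcription of many of these genes through the factors ATF6 and XBP1. Regulatory T cells depend on surface receptors and secreted cytokines, all of which fold in the ER.

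Libraries held 6763458 to 15462894 counts, and values below are CPM, counts scaled to a common library total, after TMM normalisation, for replicates 1 to 3 in that order. Fold changes carry their standard error (SE) and the adjusted p of edgeR's quasi-likelihood test, with 3 libraries per group, and a gene is said to have risen or fallen where the adjusted p was below 0.05. Syvn1 was counted at 145.5, 137 and 129.7 CPM in KO-labelled nTreg, against 73.7, 87.2 and 75.5 CPM in WT-labelled nTreg (log2 fold change 0.80, SE 0.17, adjusted p = 0.023). In iTreg it was at 54.6, 73.1 and 63.1 CPM with the KO label and 61.6, 72.2 and 101 CPM with the WT label (log2 fold change -0.30, SE 0.17, adjusted p = 0.75). The nTreg counts go against the KO label. Counts over the whole gene include exons outside any deleted stretch and do not check the label, so every direction below is that of libraries labelled KO against libraries labelled WT. The Treg markers Foxp3, Il2ra, Ctla4, Ikzf2, Cd4 and Cd3e were present in every library, and Foxp3 was lowest in iTreg KO replicate 2, at 187 CPM before TMM scaling, against 307 to 391 CPM in the other 5 iTreg libraries. Xist was above 100 CPM in 1 iTreg WT library (replicate 2) and in the nTreg libraries numbered 3 of both labels, so libraries of a group differ in a way their labels do not give.

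In nTreg every one of these 10 transcripts rose with the KO label, by 1.83-fold to 10.9-fold, where 2.18% of the 12038 tested genes rose. In each of them all 3 KO-labelled libraries lay above all 3 WT-labelled ones, which held for 15.7% of tested genes. The median log2 fold change of the 10 was 1.94, against 0.01 over all tested genes. RNA of sorted cells was measured in bulk, so a change in the share of expressing cells and a change in RNA per cell cannot be told apart. The plot of levels by library shows each value.

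**Figure D1:**
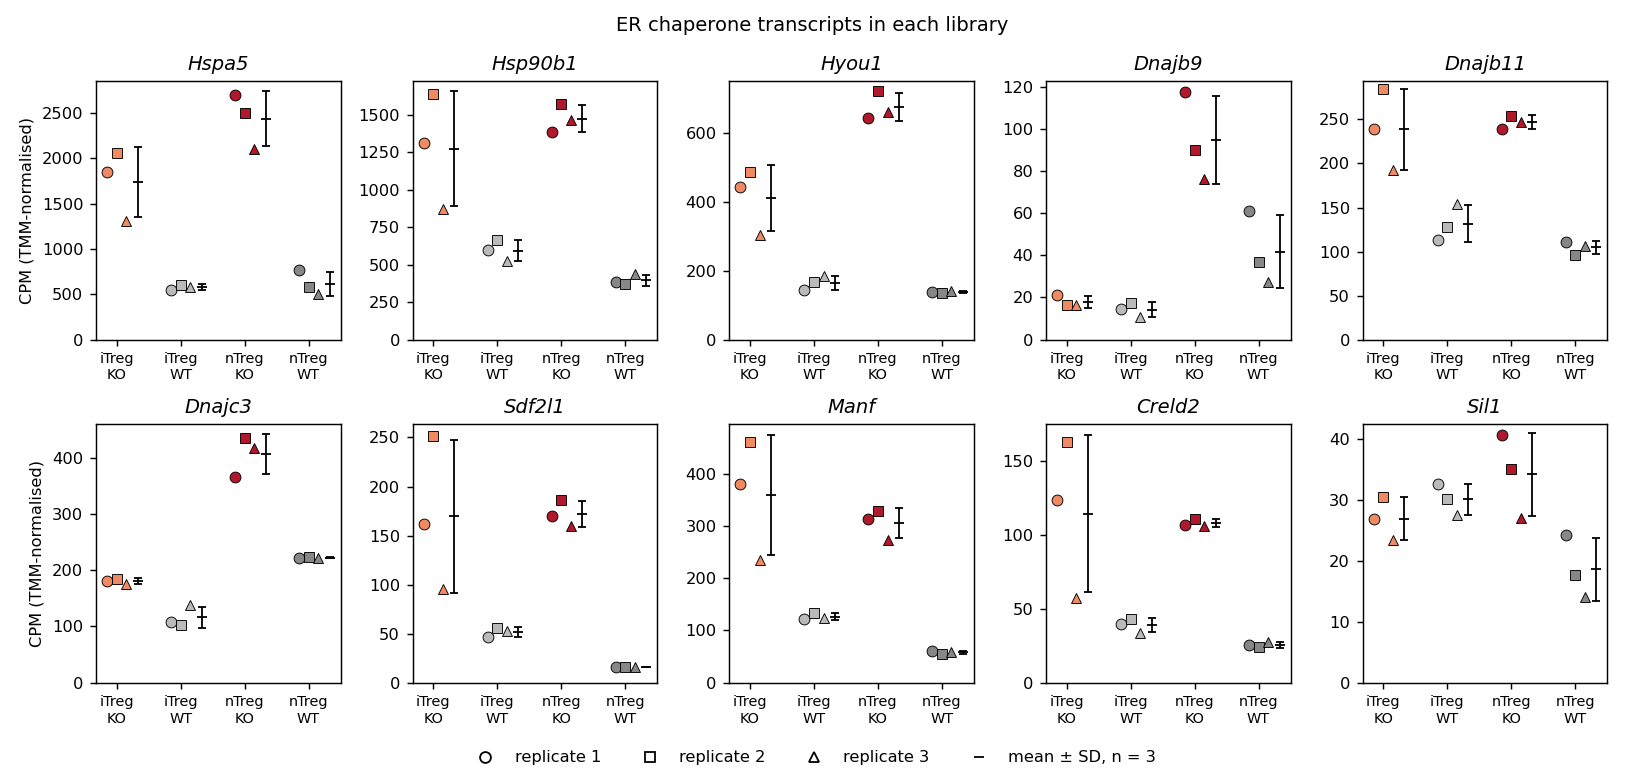
Level of each of the 10 transcripts (TMM-normalised CPM, linear axes from 0) in the 12 libraries, by group and replicate, with the group mean ± SD (n = 3). In nTreg all KO-labelled points lie above the WT-labelled ones in every panel, and in iTreg this is so in 8 of 10 panels, Dnajb9 and Sil1 being the others.

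The Hsp70 itself, Hspa5 (BiP; chromosome 2, 34771970 to 34777547, plus strand, GENCODE M21 on mm10), was the most abundant of the set in nTreg. It had 2701, 2506 and 2103 CPM in KO-labelled nTreg and 766, 576 and 505 CPM in WT-labelled nTreg. The lowest KO-labelled library was thus well above the highest WT-labelled one, and in both labels replicate 1 was the highest library. Its log2 fold change was 1.98 (SE 0.19, adjusted p = 9.5e-05). Hsp90b1, which encodes GRP94, the ER Hsp90 (chromosome 10, 86690209 to 86705509, minus strand), had 1388, 1572 and 1465 CPM with the KO label and 383, 369 and 439 CPM with the WT label. Both groups were tight, and the rise was 1.89 on the log2 scale (SE 0.19, adjusted p = 0.00015). A pseudogene on the opposite strand, 1810014B01Rik, shares 415 bp of exon with Hsp90b1 and had a mean of 4.02 CPM in KO-labelled and 5.08 CPM in WT-labelled nTreg, far below the Hsp90b1 counts. Whether the counting used strand is not given in the sources used here.

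The exchange factors of BiP differed in size of response. Hyou1 (GRP170, a large Hsp70-like protein that resets BiP; chromosome 9, 44379490 to 44392369, plus strand) had 645, 723 and 662 CPM in KO-labelled nTreg and 139, 136 and 140.2 CPM in WT-labelled nTreg. The WT-labelled libraries had a coefficient of variation of 1.42%, and the fold was 4.88 (log2 2.29, SE 0.16, adjusted p = 1.1e-05). Sil1, the other nucleotide exchange factor of BiP, was the scarcest per length in nTreg. It had 40.7, 35.1 and 27.1 CPM with the KO label and 24.2, 17.7 and 14.1 CPM with the WT label. The groups were separated only narrowly, and replicate 1 was again highest and replicate 3 lowest under both labels. Sil1 rose by 0.89 on the log2 scale (SE 0.20, adjusted p = 0.040), a call that ended in 7 of the 12 fits that left out 1 library each, with adjusted p up to 0.20. These were the fits without nTreg KO replicate 1 or 2, nTreg WT replicate 2 or 3, iTreg KO replicate 1 or iTreg WT replicate 1 or 2.

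Of the J proteins, Dnajb11 (ERdj3, which binds unfolded clients and passes them to BiP; chromosome 16, 22857845 to 22879634, plus strand) had 239, 254 and 247 CPM in KO-labelled nTreg, against 111, 96.3 and 107 CPM in WT-labelled nTreg. Neither group spread far, and the log2 fold change was 1.24 (SE 0.15, adjusted p = 0.00044). Dnajc3 (P58IPK, a luminal J protein also known as an inhibitor of PERK signalling; chromosome 14, 118937976 to 118981697, plus strand) had 366, 436 and 416.5 CPM with the KO label and 222, 223 and 221 CPM with the WT label. This was the smallest rise of the 10, 0.87 on the log2 scale, yet with 3 nearly equal WT-labelled libraries its adjusted p was 0.00095. Dnajb9 (ERdj4, which takes part in ER-associated degradation and recruits BiP to the stress sensor IRE1; chromosome 12, 44205559 to 44210326, minus strand) had 117, 89.9 and 76.2 CPM with the KO label and 61, 36.9 and 27.1 CPM with the WT label. Replicate 1 was the highest library of both groups, and the gap between the groups was smaller than the range within either. Its log2 fold change was 1.19 (SE 0.27, adjusted p = 0.040), and among the 12 fits with a library left out the call held without nTreg WT replicate 1 and without iTreg WT replicate 3, with adjusted p up to 0.19 in the others. In a fit blocked on replicate number, where 5.36% of tested genes rose and 3.64% fell, all 10 genes rose, Dnajb9 and Sil1 included.

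The highest fold was that of Sdf2l1, whose product forms a complex with ERdj3 and supports its hold on unfolded clients (chromosome 16, 17130138 to 17132383, minus strand). Sdf2l1 had 169.5, 187 and 160.1 CPM in KO-labelled nTreg and 15.7, 15.7 and 16.0 CPM in WT-labelled nTreg, a 10.9-fold difference (log2 3.44, SE 0.28, adjusted p = 3.1e-05). Libraries of each label were close to each other. Manf, a small secreted and luminal protein that binds BiP and slows its nucleotide exchange (chromosome 9, 106838312 to 106891979, minus strand), had 314, 329 and 274 CPM with the KO label and 60.9, 55.2 and 59.6 CPM with the WT label (log2 2.38, SE 0.20, adjusted p = 3.3e-05). Creld2, a stress-inducible ER protein with EGF-like repeats (chromosome 15, 88819646 to 88826683, plus strand), had 107, 111 and 106 CPM with the KO label and 25.3, 23.9 and 27.45 CPM with the WT label (log2 2.08, SE 0.29, adjusted p = 0.0012). For both genes every KO-labelled library was more than 3 times the highest WT-labelled one. Manf shares 146 bp of exon with Dcaf1 on the opposite strand (Vprbp in the files), which had a mean of 108 CPM in KO-labelled and 103 CPM in WT-labelled nTreg, so reads of Dcaf1 could add to Manf in both groups where strand was not used.

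In iTreg the estimates lay above 0 for 9 of the 10 genes. With the KO label 6 of 10 rose, Hspa5, Hsp90b1, Hyou1, Dnajb11, Sdf2l1 and Manf, where 0.166% of all tested genes rose. When blocked on replicate number 8 of 10 rose, Dnajc3 and Creld2 in addition, where 0.673% of tested genes rose. All 3 KO-labelled libraries lay above all 3 WT-labelled ones for those 8 genes, against 4.68% of tested genes, with 4.95% the other way. The median log2 fold change of the 10 was 1.21, against -0.01 over all tested genes.

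Hspa5 had 1853, 2061 and 1306 CPM in KO-labelled iTreg and 542, 605 and 585 CPM in WT-labelled iTreg. The WT-labelled libraries were close together and the KO-labelled ones were not, and the rise was 1.59 on the log2 scale (SE 0.19, adjusted p = 0.0060). Hyou1 had 443, 488 and 305 CPM with the KO label and 143, 168 and 184 CPM with the WT label (log2 1.32, SE 0.16, adjusted p = 0.0060). Manf had 381, 461 and 236 CPM with the KO label and 122, 134 and 124 CPM with the WT label (log2 1.5, SE 0.19, adjusted p = 0.0072). All 3 genes share 1 order of the KO-labelled libraries, with replicate 2 highest and replicate 3 lowest.

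Sdf2l1 had 161, 252 and 95.5 CPM in KO-labelled iTreg and 46.7, 56.2 and 53.1 CPM in WT-labelled iTreg (log2 1.70, SE 0.26, adjusted p = 0.025). Its KO-labelled libraries spanned more than a 2-fold range. Hsp90b1 had 1315, 1640.2 and 872 CPM with the KO label and 595, 664 and 522 CPM with the WT label (log2 1.1, SE 0.19, adjusted p = 0.043). Dnajb11 had 239, 284 and 193 CPM with the KO label and 113, 128 and 154 CPM with the WT label (log2 0.86, SE 0.15, adjusted p = 0.043). For both genes the groups were separate, by the narrower margin in Dnajb11.

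Creld2 and Dnajc3 did not pass in the unblocked fit although their groups were separate. Creld2 had 124, 163 and 57.4 CPM in KO-labelled iTreg and 40.1, 43.0 and 33.6 CPM in WT-labelled iTreg (log2 fold change 1.56, SE 0.27, adjusted p = 0.051, or 0.017 with the block). Dnajc3 had 182, 184 and 175 CPM with the KO label and 108, 103 and 138 CPM with the WT label (log2 fold change 0.63, SE 0.12, adjusted p = 0.058, or 0.020 with the block). Dnajb9 was scarce in iTreg, at 21.1, 16.2 and 16.4 CPM with the KO label and 14.6, 17.4 and 10.6 CPM with the WT label. Its groups overlapped (log2 fold change 0.33, SE 0.29, adjusted p = 0.85). Sil1 was the only 1 of the 10 with an estimate below 0. It had 26.9, 30.5 and 23.5 CPM with the KO label and 32.7, 30.2 and 27.6 CPM with the WT label, and these overlap (log2 fold change -0.16, SE 0.20, adjusted p = 0.91).

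Single libraries weighed on the iTreg values. Among KO-labelled iTreg, replicate 2 was the highest library for 9 of the 10 genes, against 40.2% of all tested genes, and replicate 3 was the lowest for 9, against 33.9%. The exception in both cases was Dnajb9. Replicate 2 is the library with the low Foxp3 level given above, and the part of that in the chaperone values was not tested. Without it 4 of the 10 genes rose in iTreg. Leaving out 1 library at a time moved the count of risen genes between 0 and 7. Shares of all tested genes that rose in fits with libraries left out are not given here, so these counts lack that background. No gene passed in edgeR without iTreg WT replicate 1 or without iTreg WT replicate 2, with 8 of 10 at an unadjusted p below 0.05 in each, and 3 passed without iTreg KO replicate 1, nTreg KO replicate 1 or 2, or nTreg WT replicate 1 or 3. Over these 12 fits the log2 fold change in iTreg lay between 1.45 and 1.76 for Hspa5, between 1.3 and 1.99 for Sdf2l1 and between 1.21 and 1.88 for Creld2. For each of the 3 genes the lowest value was without iTreg KO replicate 2 and the highest without iTreg KO replicate 3. Sdf2l1, Hsp90b1 and Dnajb11 were the least steady of the 6 calls, holding in 4, 1 and 2 of these fits. Without the 3 libraries with Xist reads, 6 of the 10 genes rose in nTreg and none in iTreg (edgeR, 8 of 10 at an unadjusted p below 0.05 in iTreg). DESeq2 on all libraries called 8 of the 10 higher in iTreg, where it called 0.615% of all tested genes higher.

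**Figure D2:**
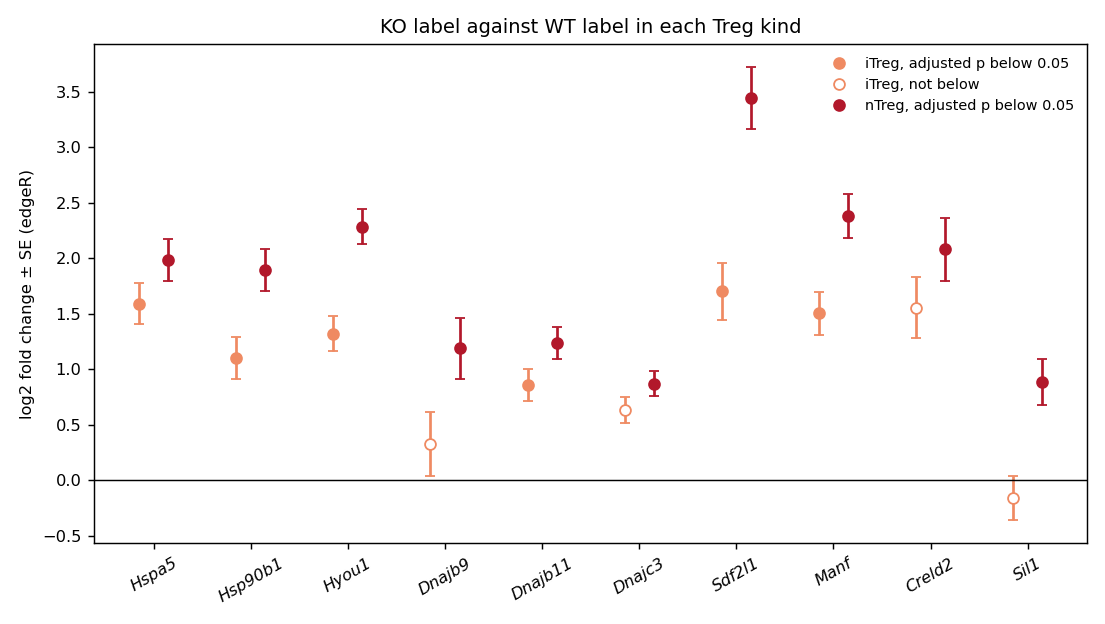
Log2 fold change of KO-labelled against WT-labelled libraries (edgeR, bars are ± SE) for the 10 genes in iTreg and in nTreg (n = 3 libraries per group). Filled points passed at an adjusted p below 0.05, 6 in iTreg and 10 in nTreg, and for each gene the iTreg estimate lies below the nTreg one.

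Whether the response differed between iTreg and nTreg was tested as the difference of the KO effects, iTreg minus nTreg. Only iTreg were cultured, so a difference by Treg kind cannot be told apart from one by culture. All 10 estimates were negative, with a median of -0.83 against -0.03 over all tested genes. None of the 10 passed in edgeR without a block, where 0.274% of all tested genes passed as lower, and 6 of 10 had an unadjusted p below 0.05, against 896 of all 12038 genes. The largest difference was that of Sdf2l1, -1.74 (SE 0.37, adjusted p = 0.098), followed by Sil1 at -1.05 (SE 0.29, adjusted p = 0.24) and Hyou1 at -0.97 (adjusted p = 0.13). When blocked on replicate number 3 passed, Sdf2l1 (-1.83, adjusted p = 0.048), Sil1 (-1.06, adjusted p = 0.012) and Hsp90b1 (-0.83, adjusted p = 0.031), where 1.8% of tested genes passed in either direction and 1.46% as lower. DESeq2 passed Hyou1 (adjusted p = 0.0098) and Sdf2l1 (adjusted p = 0.0015), where 0.939% of tested genes passed as lower. The smallest differences were those of Dnajc3 (-0.24), Dnajb11 (-0.38) and Hspa5 (-0.39). For same-numbered libraries the log2 ratio of Sil1, KO over WT, was -0.28, 0.01 and -0.23 in iTreg and 0.75, 0.99 and 0.95 in nTreg.

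Levels also differed between iTreg and nTreg, in a gene-dependent way. All iTreg were cultured for 5 days and all nTreg were sorted from tissue, so Treg kind and culture cannot be told apart. With the KO label 4 of 10 differed, all lower in iTreg, namely Hspa5, Hyou1, Dnajb9 and Dnajc3. In the fit without iTreg KO replicate 3, Manf and Creld2 passed as higher in iTreg and Hspa5 did not pass. With the WT label 6 of 10 differed between iTreg and nTreg, 4 of them higher in iTreg (Hsp90b1, Sdf2l1, Manf and Sil1) and 2 lower (Dnajb9 and Dnajc3). Differences between the kinds are common in these data: with the KO label 61.9% of tested genes differed (32.1% higher and 29.8% lower in iTreg), and with the WT label 65.2% did (34.8% higher and 30.4% lower). With the KO label the libraries of 4 genes lay entirely lower in iTreg and of none entirely higher, against 32.8% and 34.1% of tested genes. With the WT label those of 7 genes lay entirely higher and of 2 entirely lower, against 37.4% and 33.9%. These comparisons use the same libraries as the KO comparisons above and are not independent of them.

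The 2 J protein genes Dnajb9 and Dnajc3 were lower in iTreg under both labels. Dnajb9 differed by -2.40 on the log2 scale with the KO label (SE 0.29, adjusted p = 2e-05) and by -1.54 with the WT label (SE 0.29, adjusted p = 0.00049). Dnajc3 differed by -1.17 with the KO label (SE 0.12, adjusted p = 4.7e-06) and by -0.93 with the WT label (SE 0.12, adjusted p = 2.2e-05). Both genes passed under both labels in all 12 fits with a library left out. Sdf2l1 stood opposite, at a mean of 52.0 CPM in WT-labelled iTreg against 15.8 CPM in WT-labelled nTreg (log2 1.72, SE 0.27, adjusted p = 0.00016). With the KO label its levels were 170 ± 78.4 CPM in iTreg and 172 ± 13.4 CPM in nTreg (SD), with a log2 difference of -0.02 (adjusted p = 0.94). Manf was higher in iTreg by 1.11 with the WT label (adjusted p = 3e-04), and its log2 difference with the KO label was 0.23 (adjusted p = 0.30). Hspa5 differed by -0.49 with the KO label (adjusted p = 0.034, up to 0.12 without iTreg KO replicate 1 or 3 or nTreg KO replicate 1 or 2) and by -0.09 with the WT label (adjusted p = 0.67).

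**Figure D3:**
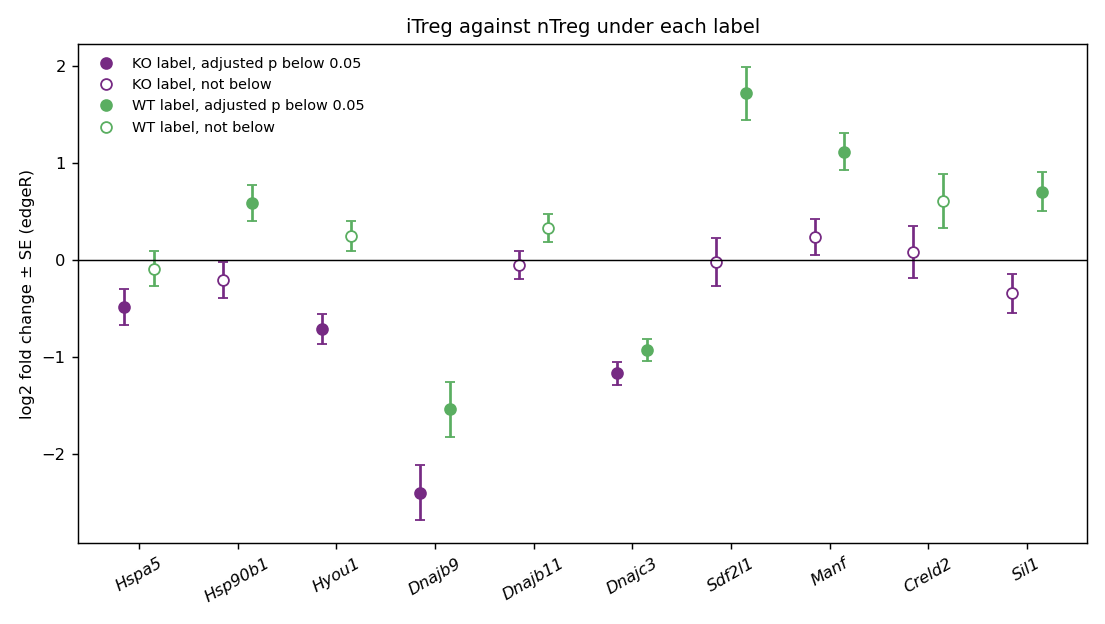
Log2 fold change of iTreg against nTreg (edgeR, bars are ± SE) under the KO label and under the WT label (n = 3 libraries per group). Dnajb9 and Dnajc3 lie below 0 under both labels, and Sdf2l1 is 1.72 with the WT label and -0.02 with the KO label.

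Set against gene length, the order of the 10 transcripts shows which chaperones dominate the mix. Per kilobase of exon (GENCODE M21), Hspa5 was first in KO-labelled iTreg (411 CPM per kb), second in WT-labelled iTreg (137), and first in KO-labelled and WT-labelled nTreg (576 and 146). Hsp90b1 was the other leader, at 316 CPM per kb in KO-labelled iTreg, 147 in WT-labelled iTreg, 366 in KO-labelled nTreg and 98.4 in WT-labelled nTreg. Library by library, Hspa5 lay above Hsp90b1 throughout both nTreg groups and KO-labelled iTreg. In WT-labelled iTreg Hsp90b1 was the higher in replicates 1 and 2 and Hspa5 in replicate 3. Sdf2l1 held the third place in KO-labelled iTreg (153 CPM per kb), WT-labelled iTreg (46.9) and KO-labelled nTreg (155), yet was ninth in WT-labelled nTreg (14.3). Hyou1, Manf, Creld2, Dnajc3 and Dnajb11 filled ranks 4 to 8 in KO-labelled nTreg, at 93.6, 86.7, 79.3, 79.0 and 76.4 CPM per kb, and neighbours in that order overlapped in their libraries. The last places went to Dnajb9 in KO-labelled and WT-labelled iTreg (7.02 and 5.57 CPM per kb) and to Sil1 in KO-labelled and WT-labelled nTreg (9.98 and 5.43).

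Together the 10 genes took a larger share of all counts with the KO label. In KO-labelled iTreg they held 0.473%, 0.547% and 0.325% of library counts, against 0.178%, 0.196% and 0.179% in WT-labelled iTreg. In KO-labelled nTreg they held 0.610%, 0.641% and 0.557%, against 0.181%, 0.156% and 0.154% in WT-labelled nTreg. The groups did not overlap, and the ratio of the means was 2.44 in iTreg and 3.68 in nTreg (two-sided exact permutation p = 0.10 in each, the smallest that 3 against 3 libraries can give). Hspa5 alone supplied 38.6% of these reads in KO-labelled iTreg, 31.3% in WT-labelled iTreg, 40.8% in KO-labelled nTreg and 37.3% in WT-labelled nTreg.

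The composition of the set shifted as well, as counts relative to the Hsp70 show. For every 100 reads of Hspa5 there were 7.11 ± 0.727 reads of Sdf2l1 in KO-labelled nTreg and 2.65 ± 0.567 in WT-labelled nTreg (SD, n = 3), and the 2 sets of libraries were separate. In iTreg the same ratio was 9.41 ± 2.53 with the KO label and 9 ± 0.351 with the WT label, which overlap. The J protein Dnajc3 went the other way, at 10.7 ± 2.35 in KO-labelled and 20.2 ± 3.26 in WT-labelled iTreg, and at 16.9 ± 3.15 in KO-labelled and 37.1 ± 7.51 in WT-labelled nTreg. Sil1 was at 1.58 ± 0.193 in KO-labelled and 5.25 ± 0.695 in WT-labelled iTreg, and at 1.40 ± 0.109 in KO-labelled and 3.01 ± 0.199 in WT-labelled nTreg. Dnajb9 and Dnajb11 were also fewer per Hspa5 read with the KO label in both kinds, while Creld2 was at 6.33 in KO-labelled and 6.75 in WT-labelled iTreg and 4.49 in KO-labelled and 4.29 in WT-labelled nTreg. These ratios are a description and were not tested.

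**Figure D4:**
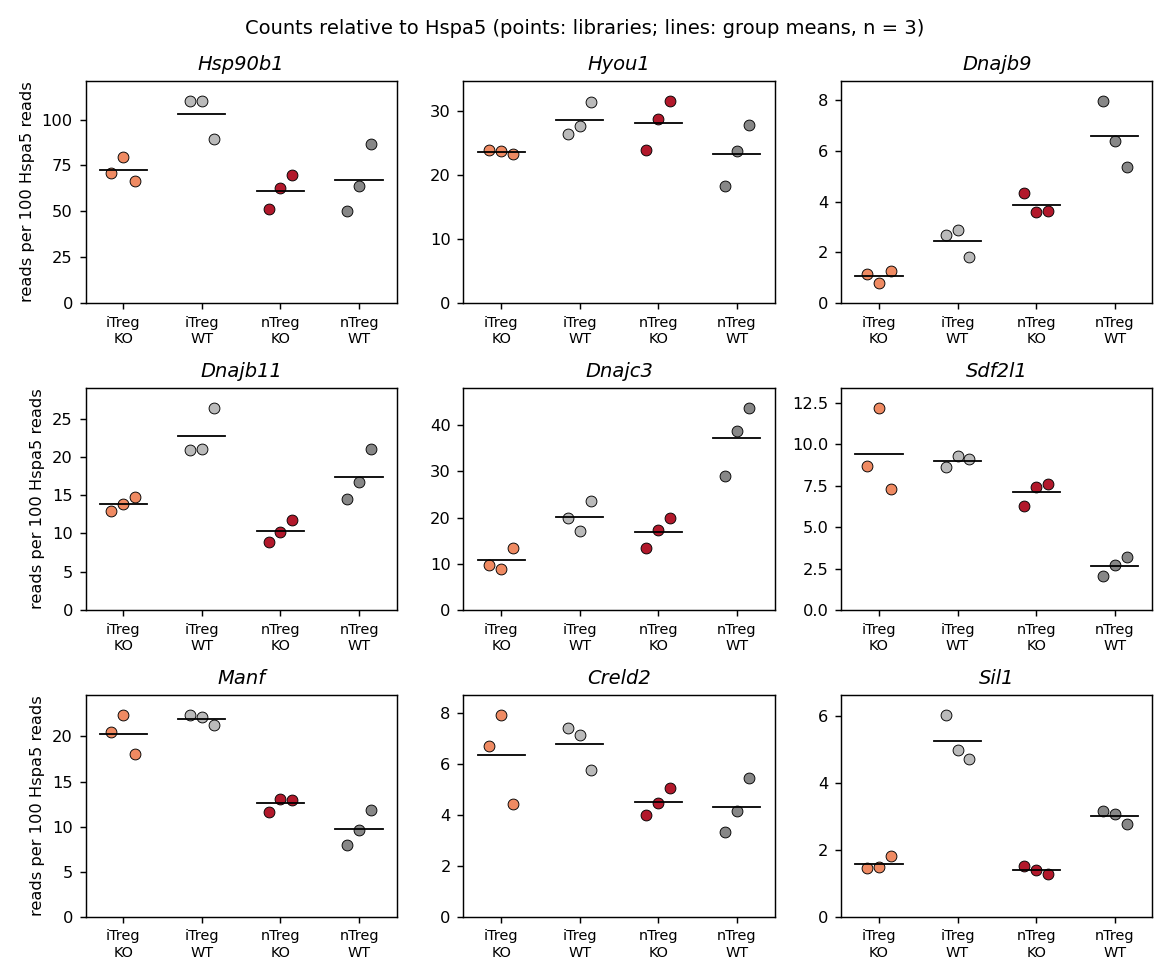
Reads of each of the other 9 genes per 100 reads of Hspa5 in each library (linear axes from 0), with lines at the group means (n = 3). Dnajb9, Dnajb11, Dnajc3 and Sil1 are lower with the KO label in both kinds, and Sdf2l1 is higher with the KO label in nTreg, where it averages 7.11 against 2.65.

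Across the 12 libraries the 10 transcripts did not all follow 1 pattern. The closest pairs were Sdf2l1 with Manf (Pearson's r 0.992 on log2 CPM), Hsp90b1 with Creld2 (0.989) and Hspa5 with Hyou1 (0.975). Dnajb9 was nearest to Dnajc3 (0.889) and far from Manf (0.11), and Sil1 was far from Dnajc3 (0.098). These values carry the group differences described above. In deviations from group means, Sdf2l1 with Manf (0.959) and Hsp90b1 with Creld2 (0.967) stayed close, and Sil1 sided with Hspa5 (0.845) and Dnajb9 (0.818). Outside the set, the 10 tested genes whose log2 CPM followed the mean of the 10 chaperones most closely were Scfd1 (0.989), Pdia3 (0.988), Bhlha15 (0.982), Surf4 (0.982), Sec24d (0.978), Derl3 (0.973), Pdia4 (0.973), H47 (0.972), Calr (0.971) and Uso1 (0.971), over 12 libraries. Derl3 had log2 fold changes of 2.64 in iTreg (adjusted p = 0.0041) and 5.70 in nTreg (adjusted p = 2.7e-06), and Bhlha15 of 2.90 in iTreg (adjusted p = 0.051) and 4.77 in nTreg (adjusted p = 0.00044).

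The promoters of these genes are known for ER stress response elements, so the letters of 7 promoters were read. RefSeq promoter windows (GRCm38.p6, 250 bases before to 50 after the transcription start) were matched by symbol for Hspa5, Hsp90b1, Dnajb9, Dnajb11, Dnajc3, Sdf2l1 and Creld2. Both strands were searched for the ER stress response element ERSE (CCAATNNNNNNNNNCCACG), for ERSE-II (ATTGGNCCACG), for the unfolded protein response element UPRE (TGACGTGG) and for the core CCACG, which lies within ERSE and ERSE-II. ERSE was found in 4 of the 7 windows, Hspa5, Hsp90b1, Dnajc3 and Creld2, and in 0.119% of all 32851 promoters in the table. ERSE-II was found in Dnajb11 and in 0.0365% of all promoters. The UPRE letters were in none of the 7 and in 0.676% of all promoters. The core was in all 7 and in 32.8% of all promoters. The 7 are all tested genes, and among tested genes the core was more common. Of 8653 tested genes with a window, these 7 included, 17 held ERSE, 6 ERSE-II, 94 the UPRE letters and 4572 the core.

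The Hspa5 promoter is shown because it carries ERSE closest to the start, from base -65 to -47 (chr2:34771840-34772089, plus strand, the 250 bases before the start, 5′ to 3′). Capitals mark ERSE.
Hspa5: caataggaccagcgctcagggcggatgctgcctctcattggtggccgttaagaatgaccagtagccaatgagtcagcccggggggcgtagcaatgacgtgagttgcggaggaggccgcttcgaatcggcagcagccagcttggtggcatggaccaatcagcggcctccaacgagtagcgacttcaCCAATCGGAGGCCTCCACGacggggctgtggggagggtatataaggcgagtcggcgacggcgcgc

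The Sdf2l1 promoter is shown because this gene had the highest fold in nTreg and its window holds the core without a full element (chr16:17132384-17132633, minus strand, the 250 bases before the start, 5′ to 3′ in the direction of the gene). Capitals mark the core on the opposite strand, read here as CGTGG, at 3 places.
Sdf2l1: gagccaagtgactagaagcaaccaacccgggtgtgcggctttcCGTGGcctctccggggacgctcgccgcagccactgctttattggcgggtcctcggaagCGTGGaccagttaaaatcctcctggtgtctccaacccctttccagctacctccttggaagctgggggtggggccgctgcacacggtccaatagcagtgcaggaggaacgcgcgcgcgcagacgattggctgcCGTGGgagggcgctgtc

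The full elements of the other genes are shown side by side so that their letters and orientation can be compared, each 5′ to 3′ in the direction of the gene with 20 bases or fewer on either side of the elements. Capitals mark ERSE, or ERSE-II in Dnajb11. Hsp90b1 holds 2 of them, the first on the gene's strand from base -212 and the second on the opposite strand from base -107 (chr10:86705513-86705676, minus strand). Dnajc3 holds 1 from base -105 (chr14:118937807-118937865, plus strand). Creld2 holds 1 on the opposite strand from base -126 (chr15:88819500-88819558, plus strand). In Dnajb11 the element begins at base 7 after the start (chr16:22857832-22857869, plus strand).
Hsp90b1: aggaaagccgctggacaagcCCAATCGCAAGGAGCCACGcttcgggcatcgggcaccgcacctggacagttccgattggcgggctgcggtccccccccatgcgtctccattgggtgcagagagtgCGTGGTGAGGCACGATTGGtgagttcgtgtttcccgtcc
Dnajc3: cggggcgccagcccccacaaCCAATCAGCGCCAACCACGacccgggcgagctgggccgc
Creld2: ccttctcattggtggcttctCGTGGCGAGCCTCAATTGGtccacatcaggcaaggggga
Dnajb11: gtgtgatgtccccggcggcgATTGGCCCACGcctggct

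**Figure D5:**
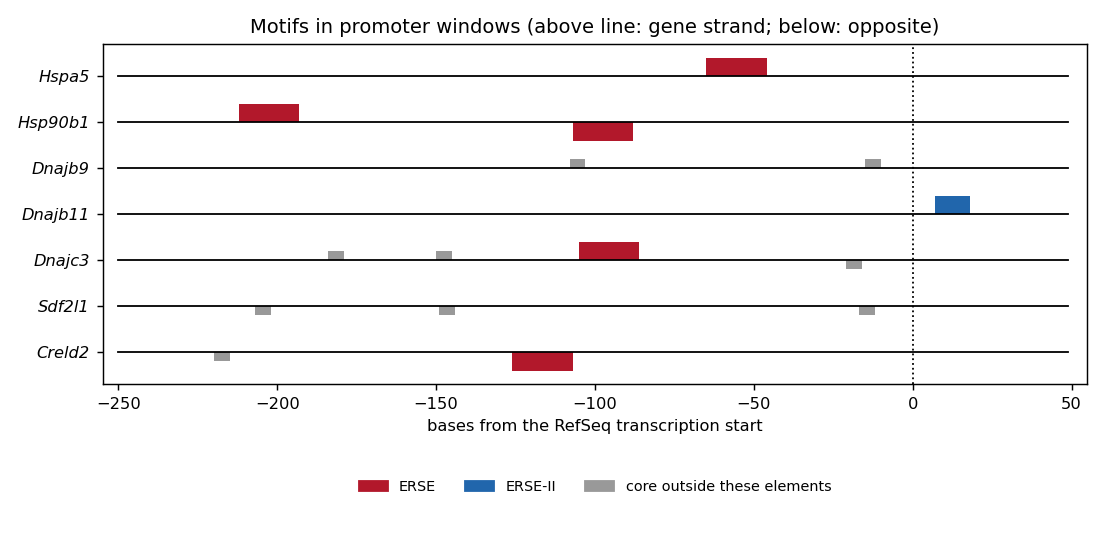
Matches of ERSE, ERSE-II and the core outside them in the promoter windows of 7 genes, by distance in bases from the RefSeq start. Boxes above a line are on the gene's strand and boxes below it on the opposite strand, and Hsp90b1 carries 2 ERSE matches, Hspa5, Dnajc3 and Creld2 1 each, and Dnajb11 an ERSE-II just past the start.

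A match of letters is a description and not a site of binding. Within the set the highest and the lowest rise in nTreg fell on both sides of this split. Sdf2l1, with the core alone, had a log2 fold change of 3.44 in nTreg, and Dnajc3, with ERSE, had 0.87. Outside the set, 13 tested genes held ERSE in their window, of which 3 rose with the KO label in iTreg and 5 in nTreg (38.5%), against 2.18% of the 8633 tested genes without ERSE in nTreg. Of 5 tested non-members with ERSE-II, 1 rose in iTreg and 3 in nTreg. Of 94 with the UPRE letters, 1 rose in iTreg and 13 in nTreg (13.8%, against 2.1% of those without). Of 4565 with the core, 8 rose in iTreg and 134 in nTreg (2.94%, against 1.45% of those without).

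Further genes of ER folding were read from lists chosen by role. Of 15 lectin chaperones, disulfide isomerases and related folding enzymes, 3 rose with the KO label in iTreg (Pdia6, Calr and Pdia3) and 12 in nTreg, with median log2 fold changes of 0.52 in iTreg and 1.32 in nTreg. With the block the counts were 5 in iTreg and 13 in nTreg. Pdia6, a disulfide isomerase, rose by 1.53 on the log2 scale in iTreg (SE 0.16, adjusted p = 0.0041) and by 2.41 in nTreg (SE 0.16, adjusted p = 1.1e-05). Canx, the membrane lectin calnexin, had a log2 fold change of 0.30 in iTreg (adjusted p = 0.46) and rose by 1.28 in nTreg (adjusted p = 2e-05). For Canx the difference of KO effects passed as lower in iTreg, the 1 such gene of this list without the block and 1 of 8 with it. Calr, the luminal lectin calreticulin, rose by 0.93 in iTreg (adjusted p = 0.032) and by 1.32 in nTreg (adjusted p = 0.00029).

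Of 19 further partners of the ER Hsp70 system, such as membrane J proteins, the AMP-transferase of BiP and the KDEL receptors, 3 rose in nTreg, or 6 with the block. These were Hspa13, a distant Hsp70 (log2 1.1, adjusted p = 0.00083), Ficd, which adds and removes AMP on BiP (log2 0.90, adjusted p = 0.0081), and Kdelr2, a receptor that returns luminal chaperones from the Golgi (log2 0.79, adjusted p = 0.025). In iTreg none of the 19 passed in edgeR or DESeq2, 3 had an unadjusted p below 0.05, and Creld1, a relative of Creld2, passed with the block (log2 0.95, adjusted p = 0.030). Ficd had a log2 fold change of 0.53 in iTreg (adjusted p = 0.41). The median of this list was 0.03 in iTreg and 0.30 in nTreg, beside 1.21 and 1.94 for the 10 luminal genes.

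Of 16 sensors and factors of the unfolded protein response, 6 rose in nTreg, namely Xbp1, Ddit3, Creb3l2, Atf6, Atf4 and Eif2ak3. Xbp1, a factor that drives ER chaperone genes, had a log2 fold change of 0.47 in iTreg (adjusted p = 0.35, or 0.031 with the block) and rose by 2.02 in nTreg (adjusted p = 1.1e-05). Atf6, the other such factor, had 0.18 in iTreg (adjusted p = 0.82) and rose by 0.78 in nTreg (adjusted p = 0.0053). Ddit3, the stress factor CHOP, had 1.25 in iTreg (adjusted p = 0.073) and rose by 2.16 in nTreg (adjusted p = 0.00031). In iTreg none of the 16 passed in edgeR, 3 had an unadjusted p below 0.05, 2 passed with the block (Xbp1 and Atf3) and 1 by DESeq2 (Ddit3).

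Chaperones of other compartments were read for contrast. Of 24 Hsp70, Hsp90, J proteins and exchange factors of cytosol and mitochondria, 1 rose in nTreg, the mitochondrial Hsp70 gene Hspa9 (log2 0.86, SE 0.12, adjusted p = 0.0013). With the block 3 rose and 1 fell in nTreg. In iTreg none passed in edgeR, with the block or by DESeq2, and 1 had an unadjusted p below 0.05, Hspa9 (log2 fold change 0.34, adjusted p = 0.49). Hspa8, the constitutive cytosolic Hsp70, had log2 fold changes of 0.34 in iTreg (adjusted p = 0.77) and 0.24 in nTreg (adjusted p = 0.66). The medians of this list were 0.05 in iTreg and 0.01 in nTreg.

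Clients of GRP94 were examined at the transcript level, since Hsp90b1 rose in both kinds. Of 19 tested integrin, Toll-like receptor and related client genes, none passed in iTreg or in nTreg in edgeR without the block, with 3 and 7 at an unadjusted p below 0.05. DESeq2 called 2 lower in nTreg, Itgb2 and Itgb8, and none in iTreg. With the block 2 fell in iTreg and 6 fell and 1 rose in nTreg. Itgb2, the beta subunit of LFA-1, had a log2 fold change of -0.04 in iTreg (adjusted p = 0.96) and -0.34 in nTreg (adjusted p = 0.11, or 0.034 with the block). Itgb8, whose product activates latent TGF-beta, had -1.01 in iTreg (adjusted p = 0.68) and -0.80 in nTreg (adjusted p = 0.12, or 0.033 with the block). Its iTreg value rests on very few reads, at means of 0.29 CPM with the KO label and 0.59 CPM with the WT label. In nTreg the means were 14.1 and 24.5 CPM. The medians of the list were -0.24 in iTreg and -0.34 in nTreg.

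Because plasma cells carry high levels of these chaperones, markers of other cells were summed in each library, as CPM before TMM scaling. The 5 plasma cell markers found (Igj, Sdc1, Tnfrsf17, Slamf7 and Pou2af1) summed to 22.7 to 41.8 CPM in KO-labelled and 19.8 to 34.8 CPM in WT-labelled iTreg, and to 19.0 to 39.1 CPM in KO-labelled and 19.7 to 54.7 CPM in WT-labelled nTreg. Tnfrsf17 had at most 1 read in any library, Sdc1 reached 2.96 CPM in WT-labelled iTreg, and Pou2af1 reached 25.2 CPM and Slamf7 32.4 CPM in KO-labelled iTreg, Slamf7 in replicate 2. The part of these markers in the chaperone values was not tested. Igj was higher in the nTreg libraries numbered 1, at 16.7 CPM with the KO label and 27.9 CPM with the WT label, against 0.841 to 1.38 CPM in the other 4 nTreg libraries. The KO-labelled nTreg library numbered 1 was highest of its group for 3 of the 10 chaperones, against 37% of all tested genes. These were Hspa5, Dnajb9 and Sil1, and it was lowest for 4, against 37.7%. The WT-labelled one was highest for 5, those 3 with Dnajb11 and Manf, against 36.2%, and lowest for 1, against 35.3%. Without both libraries 9 of the 10 chaperones rose in nTreg and 3 in iTreg. The 6 B cell markers summed to 16.6 to 17.5 CPM in KO-labelled nTreg and 27.8 to 33.7 CPM in WT-labelled nTreg, the opposite direction to the chaperones. The 12 myeloid markers summed to 75.4, 853 and 163 CPM in KO-labelled nTreg and to 94.6, 359 and 178 CPM in WT-labelled nTreg, with replicate 2 highest under both labels. KO-labelled nTreg replicate 2 was also the highest library of its group for 7 of the 10 chaperones, against 30.6% of all tested genes. Without both nTreg libraries numbered 2, 8 of the 10 rose in nTreg and 3 in iTreg, and the part of myeloid cells in the chaperone values was not tested. For the fits without the libraries numbered 1 or 2, shares of all tested genes that rose are not given here.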

How the data were processed

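The values the authors deposited are raw counts by gene symbol, in 1 table per library. Per the submitters' processing notes cutadapt 1.13, STAR, HTSeq 0.6.1p1, DESeq2 and mm10 were named, and the role of each, the annotation and the use of strand are not given in the sources used here. Counts were tested with edgeR 4.0.16 (R 4.3.3, quasi-likelihood, robust, TMM, filterByExpr at a count of 10 and a total of 15) in 1 group model over all 12 libraries (8 residual degrees of freedom). Benjamini-Hochberg adjustment ran over all 12038 genes kept, at a threshold of 0.05. Alternatives were DESeq2 1.42.0, RLE size factors, omitting the filter, requiring a CPM of 5 in at least 3 libraries, a replicate block and each library left out. Chosen after seeing the data were fits leaving out the 3 Xist libraries, without both nTreg libraries numbered 1 or numbered 2, and with libraries thinned to the smallest total.

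Deviations from group means (9200 genes) correlated at 0.318 to 0.669 between same-numbered KO and WT libraries in iTreg and at 0.497 to 0.647 in nTreg. Between differently numbered libraries the values were -0.55 to 0.094 in iTreg and -0.461 to -0.047 in nTreg. Deviations within a group sum to 0, so these lower values follow in part from the positive ones and are not separate evidence of pairing. The labels give no pairing, so the block on replicate number rests on these correlations of the same counts. Xist was above 100 CPM in iTreg WT replicate 2 and not in iTreg KO replicate 2. The blocked fit (4 residual degrees of freedom) is given where it changes a call. In simulated nTreg data 12% of 1.5-fold, 66% of 2-fold and 80% of 4-fold changes were recovered. Recovery in iTreg is not given here. The genes and lists were chosen with earlier results of these data known, so no list was tested. Besides the 10 chaperones, the text names Syvn1, of each list up to 4 genes of smallest p in nTreg and 2 in iTreg, and the 10 most alike genes. Names outside that rule (Atf3, Atf4, Eif2ak3, Creld1, Pdia3 in iTreg, Hspa8, cell type markers and overlapping genes) were given after their values were seen. CPM per kb used GENCODE M21 exon lengths, which the authors may not have used. Figures were drawn with matplotlib 3.10.9.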

Additional observations from a re-analysis of the deposited data

Results flagged for a closer look

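In the fit blocked on replicate number, the effect of the KO label differed between iTreg and nTreg for 3 of the 10 genes. This was a test of the difference itself (edgeR, iTreg minus nTreg), where 1.46% of tested genes passed as lower and 1.8% in either direction. Treg kind cannot be told apart from culture here. The log2 difference was -1.83 for Sdf2l1 (adjusted p = 0.048), -1.06 for Sil1 (adjusted p = 0.012) and -0.83 for Hsp90b1 (adjusted p = 0.031). Without the block the adjusted p was 0.098 for Sdf2l1, 0.24 for Sil1 and 0.41 for Hsp90b1. DESeq2 passed Sdf2l1 and Hyou1 but not Sil1 or Hsp90b1, where 0.939% of tested genes passed as lower. For Sdf2l1 the WT-labelled level was itself 1.72 higher on the log2 scale in iTreg than in nTreg. For Sil1 the KO-labelled and WT-labelled libraries overlapped in iTreg and were separate in nTreg.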

How the results depend on the processing

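The number of the 10 genes called was within 1.5 times the main count in all 5 comparisons under RLE size factors, no filter, the stricter filter and thinning to the smallest total. Under RLE 8 of 10 rose in nTreg, without Dnajb9 (adjusted p = 0.056) and Sil1 (adjusted p = 0.055). For the difference of KO effects, with 0 calls in edgeR, DESeq2 gave 2 and the replicate block 3. The block, in which numbers pair the libraries of a kind, changed the KO call of Dnajc3 and Creld2 in iTreg and of no other gene of the 10. With each library left out in turn, calls ranged from 0 to 7 in iTreg (6 with all libraries), from 8 to 10 in nTreg and from 0 to 2 for the difference. Without the 3 libraries with Xist reads 0 genes rose in iTreg and 6 in nTreg. Without both nTreg libraries numbered 2, or both numbered 1, 3 rose in iTreg. The cause was not tested, and each such fit has fewer libraries. Shares of all tested genes called in these fits are not given here.

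Direction turned for 4 values, none called with all libraries. Sdf2l1, KO-labelled iTreg minus nTreg, ranged from -0.42 to 0.26 with a library left out, above 0 without nTreg KO replicate 2 (0.03) or iTreg KO replicate 1 (0.01) or 3, and was 0.03 without both nTreg libraries numbered 2. Dnajb11 there ranged from -0.19 to 0.08, above 0 without iTreg KO replicate 3, and Creld2 from -0.26 to 0.4, below 0 without iTreg KO replicate 2. Creld2 passed as higher in iTreg without iTreg KO replicate 3 (edgeR, adjusted p = 0.023). Hspa5, WT-labelled iTreg minus nTreg, ranged from -0.22 to 0.09, above 0 without nTreg WT replicate 1, and was 0.09 without both libraries numbered 1. Of the other values for single genes under the alternatives, 929 kept their side of the threshold, 87 lost it and 26 gained it. The share of counts on the 10 genes, KO minus WT, ranged from 0.215 to 0.326 percentage points in iTreg and from 0.42 to 0.462 in nTreg with a library left out. With libraries thinned to the smallest total, Dnajb9 was no longer called in nTreg and Dnajc3 was called in iTreg. Omitting the filter, at full depth, changed the same calls, and the part of depth was not tested.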
